A study of Mus musculus with 4 samples.

Results

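ATP-binding cassette (ABC) genes were described in single cells of mouse liver and liver tumor. The members are 49 of the 50 genes whose symbol starts with Abca to Abcg followed by a digit, among 31053 genes in the count matrix. The choice used the symbols and no measured value. Of the 49 members, 38 had at least 100 UMIs (counted RNA molecules) over the analysed cells and are called detected, 8 had between 1 and 99, and Abca12, Abca16 and Abcc8 had 0. The members together held 92672 UMIs, or 0.0761% of the 121711718 UMIs analysed.

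The study followed a mouse model of hepatocellular carcinoma (HCC) that is induced by genes, which the sources used here do not name. HCC-NL was normal liver at week 0, and HCC-ES, HCC-MS and HCC-LS were tumor tissue at week 4, at week 8 and at a last time, which is week 10 in the sample's label and week 12 in the series text. There was 1 sample of each kind. The sources used here give no strain, age, sex or number of pooled animals.

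The matrix joins 4 libraries, known by the suffix of the cell barcode, and no source used here pairs a suffix with a sample. Libraries are therefore numbered 1 to 4, no week was assigned to any of them, no test was made, and the 95% intervals reflect only the error of counting. The libraries held 15593960, 49975828, 24012736 and 40617071 UMIs, with medians of 1304, 3131, 1318 and 2484 per barcode. After filtering, 34784 cells were analysed, and 585 barcode sequences occurred in more than 1 library among them. Cells were clustered without the ABC genes into 31 clusters, and 25 of these were named from fixed markers as 15 classes, each written as X-like. Unnamed clusters held 2791 cells (8.02%), most of them in cluster 4, whose leading genes were immunoglobulin genes. Hepatocyte-like cells were 20285 (58.3%). Several classes came from few libraries: erythroid-like and vascular endothelial cell-like cells were nearly all from libraries 2 and 4, and cholangiocyte-like cells nearly all from libraries 1 and 3.

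ABC proteins share a domain that binds and splits ATP. Most members span a membrane and use that energy to move lipids, bile constituents, drugs, haem precursors or fatty acids out of the cell or into an organelle. In liver, hepatocytes carry several of them on the canalicular membrane that faces the bile and others on the membrane that faces the blood, while macrophages use members of the family to pass cholesterol to lipoproteins. Abce1 and Abcf1 to Abcf3 have no membrane domain and act in translation, so they are ABC proteins but not transporters. Levels are given as CPM, the UMIs of a gene as a share of all UMIs of the summed cells on the usual scale, and since they were read at the 3′ end of transcripts without a length scale they are compared only within a gene.

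Most members, like most genes, were not 2-fold above the next class in any class. Of the 38 detected members, 10 had a level in their highest class at least 2-fold above the next class with an interval above 1, against 18.2% of all genes with 100 or more UMIs. The highest class was erythroid-like for 10 members, where 14.1% of all genes are highest, Kupffer cell-like for 7, where 5.13% are, and hepatocyte-like for 6, where 11.4% are. The 10 members were Abcb10 and Abcg2 in erythroid-like cells, Abcc9 and Abca8a in stellate or fibroblast-like cells, Abcc3, Abca9 and Abcc10 in Kupffer cell-like cells, Abcc6 and Abcc2 in hepatocyte-like cells, and Abcb1a in cholangiocyte-like cells.

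**Figure D1:**
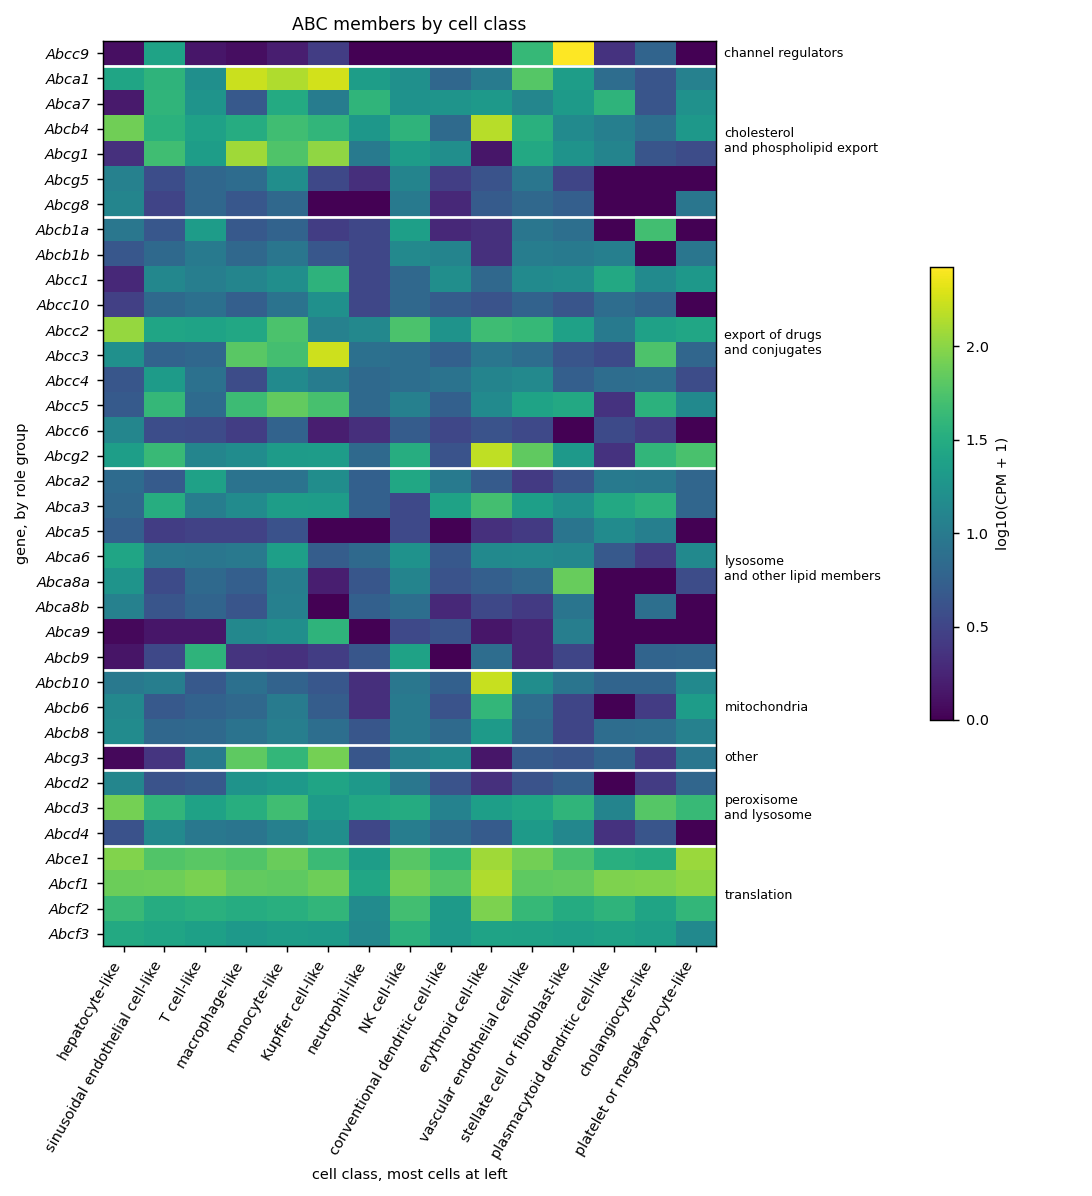
Levels of detected members (rows, by role) in the 15 classes (columns), as log10 of CPM plus 1, pooled over libraries. Abcc9 stands out in stellate or fibroblast-like cells at 265 CPM, Abcb10 in erythroid-like cells at 164 CPM and Abcc3 in Kupffer cell-like cells at 174 CPM, while the 4 translation members are spread over all classes.

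The mitochondrial members Abcb6, Abcb8 and Abcb10 were all highest in erythroid-like cells, red cell precursors that build haem. Abcb10, an inner membrane protein that takes part in haem synthesis, had 166 CPM in erythroid-like cells of library 2 and 169 CPM in those of library 4. The next class, vascular endothelial cell-like, had 18.1 and 5.51 CPM in the same libraries. The erythroid-like level lay above the next class in both libraries, and the pooled ratio was 11.4 (interval 7.12 to 19.4). Abcb10 UMIs were found in 47.0% of erythroid-like cells (interval 41.6 to 52.5) and in 0.927% of T cell-like cells (0.550 to 1.46), at median depths of 2406 and 1952 UMIs. With cells thinned to 1000 UMIs these shares were 20.9% of 277 cells and 0.472% of 1695 cells. The ratio was 3.16 with stricter cell filters (at least 1000 UMIs and under 10% mitochondrial UMIs) and 29.1 with thinned cells.

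Abcb6, which handles porphyrins, had 39.3 and 41.6 CPM in erythroid-like cells of libraries 2 and 4. Abcb8, another inner membrane member, had 21.9 and 13.1 CPM. Neither was 2-fold above its next class, at pooled ratios of 1.85 for Abcb6 and 1.46 for Abcb8. Of the 10 haem and iron-sulfur partner genes on a fixed list, 7 were highest in erythroid-like cells, against 14.1% of all genes. At least 2-fold above the next class were 8, against 18.2% of all genes. The largest ratios were those of Alas2, the erythroid enzyme that starts haem synthesis, at 26.5, Ppox at 7.39 and Cpox at 5.87, both later enzymes of that pathway. Slc25a37, the mitochondrial iron importer, is named for its known binding to Abcb10 and had a ratio of 4.63.

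Abcg2 exports drugs and also porphyrins. It had 154 and 162 CPM in erythroid-like cells of libraries 2 and 4, against 66.9 and 66.1 CPM in vascular endothelial cell-like cells of the same libraries. The ratio was 2.29 (interval 1.80 to 2.93), and the levels did not overlap. Sinusoidal endothelial cell-like cells had 37.4, 83.2, 29.97 and 37.9 CPM in libraries 1 to 4.

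Abcb4 moves phosphatidylcholine into bile and is known as a hepatocyte gene, yet its highest class here was erythroid-like. Erythroid-like cells had 142 and 153 CPM in libraries 2 and 4, and hepatocyte-like cells had 22.7, 104, 37.9 and 85.5 CPM in libraries 1 to 4. In both libraries with at least 20 erythroid-like cells their level was above the hepatocyte-like one, and the pooled ratio was 1.82 (interval 1.63 to 2.03), short of 2-fold. Leaving out cluster 15, a hepatocyte-like cluster treated below, put the pooled hepatocyte-like level at 55.5 CPM and the ratio at 2.58, above 2-fold. The summed level of 7 genes that hepatocytes secrete, read as a gauge of free RNA, was 15.3% of the hepatocyte-like level in erythroid-like cells, and the part of free RNA in their Abcb4 level was not tested.

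Of the members that export cholesterol and phospholipid, Abca1 and Abcg1 were highest in macrophage classes. Abca1 loads cholesterol and phospholipid onto apolipoprotein A-I and is a known target of the LXR receptors. The RefSeq promoter of Abca1 is shown because Abca1 had the largest pooled ratio of all members in cluster 15, a hepatocyte-like cluster described further on. Capitals mark a match to an LXR element, TGACCG and TAACCC with 4 bases between them, searched on both strands, which starts 67 bases before the gene's start. These letters were taken from this promoter with its sequence in view, and 3 of 32851 promoter windows of 250 bases hold them (0.00913%), which describes the letters and not the receptors. The window is chr4:53159896-53160145 of GRCm38.p6, minus strand.
Abca1: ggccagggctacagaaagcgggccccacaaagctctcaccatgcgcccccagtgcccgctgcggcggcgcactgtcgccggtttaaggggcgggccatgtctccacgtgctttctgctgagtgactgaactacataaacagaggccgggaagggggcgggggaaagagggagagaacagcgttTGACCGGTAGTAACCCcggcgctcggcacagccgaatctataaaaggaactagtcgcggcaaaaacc

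Kupffer cells are the resident macrophages of the liver. Abca1 had 169, 232, 149 and 157 CPM in Kupffer cell-like cells of libraries 1 to 4 and 29.3, 185, 81.7 and 138 CPM in macrophage-like cells. The Kupffer cell-like value was the higher in each of the 4 libraries, but the pooled levels of 182 and 169 CPM had a ratio of 1.08 with an interval that includes 1 (0.942 to 1.23). Abcg1, which passes cholesterol on to mature lipoprotein, had 89.0, 140, 74.6 and 136 CPM in Kupffer cell-like and 29.3, 128, 72.1 and 101 CPM in macrophage-like cells. Its pooled level was higher in macrophage-like cells (119 CPM) than in Kupffer cell-like cells (105 CPM), while within every library the order was the opposite. Library 2 held 816 of the 1139 macrophage-like cells and 107 of the 814 Kupffer cell-like cells, so the pooled order does not describe the libraries. Nr1h3, the LXR receptor of macrophages, was highest in Kupffer cell-like cells at 304 CPM, against 201 CPM in macrophage-like cells. Of the 13 genes listed for cholesterol efflux, its receptors and acceptors, all were detected. At least 2-fold above the next class were 7, against 18.2% of all genes. They were led by Apoa1 (2.78) in hepatocyte-like cells, Npc1 (2.51) in plasmacytoid dendritic cell-like cells and Mylip (2.21) in sinusoidal endothelial cell-like cells.

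Abcc3 exports glucuronide conjugates toward the blood. It had 163, 208, 142 and 184 CPM in Kupffer cell-like cells of libraries 1 to 4 and 19.6, 64.7, 52.9 and 63.7 CPM in macrophage-like cells. The lowest Kupffer cell-like value was above the highest macrophage-like one, and the pooled ratio was 2.76 (interval 2.34 to 3.26). The call was lost only at clustering resolution 0.5, where no Kupffer cell-like class formed. Abcg3, a rodent relative of Abcg2, was shared between the same classes, at 87.8, 92.1, 52.2 and 68.2 CPM in Kupffer cell-like and 39.1, 65.0, 62.5 and 74.1 CPM in macrophage-like cells, and the ranges overlapped.

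Abca9 and Abcc10 rest on few UMIs. Abca9, a lipid member of the Abca5 to Abca9 gene cluster, had 63.0, 6.58, 18.7 and 20.4 CPM in Kupffer cell-like cells of libraries 1 to 4, and library 1 gave 51 of its UMIs there. Without library 1 monocyte-like cells were the highest class, so the leading class of Abca9 is that of library 1. Abcc10, a drug exporter, had 18.5, 6.58, 29.8 and 0 CPM in Kupffer cell-like cells. Its ratio of 2.10 to monocyte-like cells (interval 1.02 to 4.56) was called in 7 of 14 alternative settings and was 1.57 without library 1 and, against T cell-like cells, 1.69 without library 3.

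**Figure D2:**
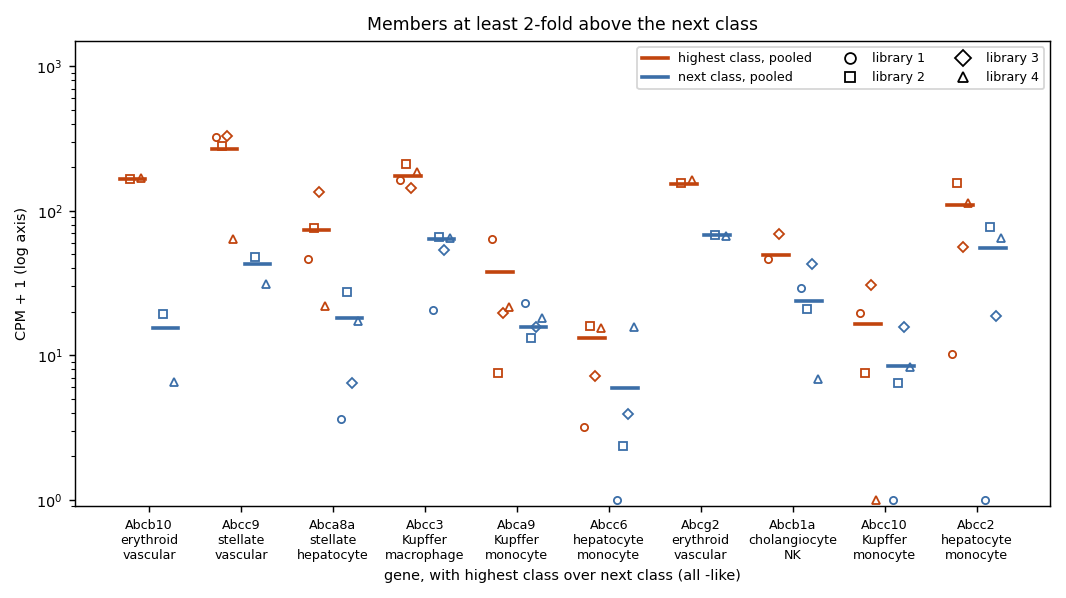
CPM plus 1 on a log axis for the 10 members at least 2-fold above the next class, in the highest class (orange) and the next class (blue); bars are pooled levels and symbols are libraries with at least 20 cells of the class. The Abcb10 and Abcc3 values of the 2 classes are apart in every library, while those of Abca9 and Abcc10 cross.

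Stellate cells and fibroblasts are the collagen-forming cells of the liver. Abcc9, the regulatory subunit of an ATP-sensitive potassium channel found in pericytes and smooth muscle, had 322, 279, 330 and 63.0 CPM in stellate or fibroblast-like cells of libraries 1 to 4. The value of library 4, from 48 cells, was the low one. Vascular endothelial cell-like cells had 46.5 and 30.3 CPM in libraries 2 and 4, and the pooled ratio was 6.38 (interval 4.71 to 8.79). Abcc9 UMIs were found in 40.7% of stellate or fibroblast-like cells (interval 35.2 to 46.4) and in 0.103% of T cell-like cells (0.0125 to 0.372), at median depths of 2228 and 1952 UMIs. Thinned to 1000 UMIs, the shares were 22.03% of 227 cells and 0.0590% of 1695 cells. With doublets kept, the next class was sinusoidal endothelial cell-like and the ratio 29.9.

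Abca8a, a lipid member of the same gene cluster as Abca9, had 45.1, 74.5, 134 and 21.0 CPM in stellate or fibroblast-like cells and 2.61, 26.6, 5.47 and 16.2 CPM in hepatocyte-like cells of libraries 1 to 4. The stellate or fibroblast-like value was the higher in every library, by a pooled ratio of 4.24 (interval 3.26 to 5.44), which was 2.16 without library 3 and 6.44 without library 2. Its neighbour Abca8b did not share this, at 10.7 CPM in hepatocyte-like and 10.5 CPM in monocyte-like cells. Hepatocyte-like cluster 15, treated below, had 158 CPM of Abca8a, above the pooled stellate or fibroblast-like level of 72.3 CPM. Abca8a and Abca8b are close copies, as are Abcb1a and Abcb1b, and the sources used here do not say how the authors' counting assigned reads shared by such pairs.

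Abcb1a, the drug pump P-glycoprotein, had 45.6 and 68.0 CPM in cholangiocyte-like cells (bile duct cells) of libraries 1 and 3 and 28.2, 19.998, 41.5 and 5.83 CPM in NK cell-like cells of libraries 1 to 4. The ratio was 2.15 (interval 1.23 to 3.75) from 98 cholangiocyte-like cells, and was 1.93 without library 2. Library 1 held 71 of the 98 cholangiocyte-like cells, and without library 1 too few were left for the class to be compared. The highest class was then T cell-like, at 23.3 CPM, so this setting does not show the cholangiocyte-like level being overtaken. Its copy Abcb1b was highest in NK cell-like cells at 12.9 CPM, next to 11.4 CPM in conventional dendritic cell-like cells. Abcb9, a lysosomal peptide transporter, was a lymphocyte gene here, at 26.3, 43.6, 29.9 and 42.2 CPM in T cell-like and 16.9, 25.7, 20.7 and 29.2 CPM in NK cell-like cells, and its ratio of 1.52 was under 2-fold. Abcc5, an exporter of cyclic nucleotides, had 68.9 CPM in monocyte-like and 51.2 CPM in Kupffer cell-like cells. Abca3, the lamellar body lipid transporter, had 48.8 CPM in erythroid-like and 35.1 CPM in cholangiocyte-like cells, and no library held 20 cells of both. Abcc1, an exporter of glutathione conjugates, had 36.3 CPM in Kupffer cell-like and 27.9 CPM in plasmacytoid dendritic cell-like cells. Abca7, a phospholipid transporter, had the same level of 37.5 CPM in neutrophil-like and sinusoidal endothelial cell-like cells, and Abcd4, which takes part in cobalamin release from lysosomes, was highest among the named classes in vascular endothelial cell-like cells (19.9 CPM), followed by Kupffer cell-like cells (14.9 CPM). Unnamed cluster 24, of 175 cells, had more of both, at 48.7 CPM for Abca7 and 20.05 CPM for Abcd4.

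The 4 translation members did not stand apart in any class at 2-fold. Abce1, which recycles ribosomes, was highest in erythroid-like cells at 119 CPM and next in platelet or megakaryocyte-like cells at 113 CPM. Abcf1, a factor of translation initiation, had 137 and 103 CPM in the same classes. Abcf2 had 87.3 CPM in erythroid-like and 48.3 CPM in NK cell-like cells. Of the 7 detected genes listed as partners in ribosome recycling and translation control, 0 were 2-fold above the next class, against 18.2% of all genes. Erythroid-like cells were the highest class for 4 of them, against 14.1% of all genes.

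Hepatocyte-like cells led for Abcd3, Abcc6, Abca8b, Abca6, Abcg8 and Abcc2. Abcc2 exports bilirubin conjugates and glutathione conjugates into bile. Its level in hepatocyte-like cells was 9.26, 154, 55.1 and 113 CPM in libraries 1 to 4, and in monocyte-like cells 0, 76.0, 17.6 and 63.5 CPM. The hepatocyte-like level was the higher in each library, with a pooled ratio of 2.02 (interval 1.64 to 2.52). This call held in 8 of 14 alternative settings: the ratio was 1.03 with stricter cell filters, 1.29 with thinned cells, 1.20 without cluster 15, and 1.87, 1.91 and 1.71 without libraries 1, 3 and 4. Hepatocyte RNA was present in every class: the genes of the free RNA gauge stood between 7.95% and 38.4% of the hepatocyte-like level, and were highest in monocyte-like cells. Abcc2 stood, pooled, at 22.6% in T cell-like cells, where the gauge was at 20.7%. In sinusoidal endothelial cell-like cells it stood at 23.3%, where the gauge was at 23.6%. Pooled over libraries, Abcc2 stood above the gauge in monocyte-like cells (49.6%) and in NK cell-like cells at 49.4% against 22.9%. The same held in erythroid-like cells at 42.2% against 15.3% and in vascular endothelial cell-like cells at 38.0% against 22.8%. Neutrophil-like cells were below it at 11.4% against 27.2%. Within libraries 2 and 4, erythroid-like cells had 35.5% against 17.5% and 9.70% against 16.7%. Vascular endothelial cell-like cells had 30.2% against 28.04% and 26.9% against 21.1%. Monocyte-like cells were above the gauge only in libraries 3 and 4, and NK cell-like cells only in libraries 2 and 3. T cell-like cells were above it in libraries 3 (40.3% against 11.8%) and 4 and below it in libraries 1 and 2 (22.9% against 29.5%). Sinusoidal endothelial cell-like cells were above it in libraries 1 and 3 (61.8% against 12.5%) and below it in libraries 2 (37.0% against 55.7%) and 4. The part of free RNA in the levels of Abcc2 outside hepatocyte-like cells was not tested.

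The RefSeq promoter of Abcc2 is shown because this gene varied most among hepatocyte-like cells. Capitals mark the match to an HNF1 motif, GTTAA and ATTAA with 2 bases between them, searched on both strands, which begins 75 bases before the start. In all, 47 of the 32851 promoter windows hold it (0.143%). HNF1 is a transcription factor of hepatocytes, and the motif was chosen with the sequence in view. The window is chr19:43782058-43782307 of GRCm38.p6, plus strand.
Abcc2: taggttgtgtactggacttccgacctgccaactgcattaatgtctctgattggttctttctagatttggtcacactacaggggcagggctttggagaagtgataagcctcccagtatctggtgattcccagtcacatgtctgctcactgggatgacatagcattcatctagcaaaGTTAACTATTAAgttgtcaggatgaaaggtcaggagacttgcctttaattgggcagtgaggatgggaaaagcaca

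Abcc6, a hepatocyte exporter whose loss is known to cause calcification of connective tissue, had 2.17, 14.9, 6.18 and 14.5 CPM in hepatocyte-like cells of libraries 1 to 4. Monocyte-like cells had 0, 1.36, 2.93 and 14.7 CPM, so the hepatocyte-like level was the higher in 3 of 4 libraries. The pooled ratio of 2.45 (interval 1.24 to 5.69) was 1.31 without library 2 and 1.56 without cluster 15. Abcd3, which imports branched fatty acids and bile acid precursors into peroxisomes, had 133, 80.8, 63.1 and 82.4 CPM in hepatocyte-like cells, and its ratio of 1.36 to cholangiocyte-like cells was under 2-fold. Of the 10 genes listed as partners of peroxisomal fatty acid import, 9 were highest in hepatocyte-like cells and 6 were at least 2-fold above the next class. These 6 were led by Acaa1b (3.48), Scp2 (2.92) and Acox2 (2.70), enzymes and carriers of peroxisomal oxidation. Of the 12 detected partners and regulators of bile formation, 8 were highest in hepatocyte-like cells and 5 were at least 2-fold above the next class. These 5 were led by Nr1i3 (2.46), Pdzk1 (2.30) and Nr1i2 (2.12). Over all genes, 11.4% were highest in hepatocyte-like cells and 18.2% were at least 2-fold above the next class.

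Within hepatocyte-like cells 32 members had at least 100 UMIs, and 31 of them differed at least 2-fold between the highest and the lowest of 10 clusters. The same held for 96.4% of all genes with 100 UMIs there, so this count is not a result about the members. Cluster 15 was the highest cluster for 28 of the 32 members, against 49.1% of all genes. The exceptions were Abce1 and Abcf2, highest in cluster 16, Abcf1, highest in cluster 6, and Abcf3, highest in cluster 1.

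Cluster 15 held 672 cells, of which 374, 83 and 214 came from libraries 2, 3 and 4 and 1 from library 1. Its leading genes were Apob, Neat1 and Abcc2, although Abcc2 was not used in the clustering. Abcc2 had 1185, 1240 and 1306 CPM in cluster 15 in libraries 2, 3 and 4. In cluster 6, the next cluster, it had 159, 226 and 200 CPM in the same libraries, and the other hepatocyte-like clusters lay between 6.82 and 53.3 CPM. Each library thus gave the same order, and Abcc2 in cluster 15 was 18.9-fold (interval 18.2 to 19.7) above all other hepatocyte-like cells pooled. Abcb4 had 608, 593 and 776 CPM in cluster 15 of libraries 2, 3 and 4 and 120, 138 and 165 CPM in cluster 6. Its ratio of cluster 15 to the other hepatocyte-like cells was 11.9. Abca1 had 332, 293 and 322 CPM in cluster 15 and 37.6, 38.0 and 31.1 CPM in cluster 6, and its ratio was 23.2.

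The 28 members with a membrane domain were all higher in cluster 15, and the 4 of translation were not. Against the other hepatocyte-like cells, 28 of the 32 members were at least 2-fold higher in cluster 15 and 0 were at least 2-fold lower, while 43.9% of all genes were higher and 16.2% lower. The same 28 were higher within libraries 2, 3 and 4 each. The median log2 ratio was 2.70 over the members and 0.74 over all 11148 genes. Ratios were 18.9 for Abcc4, an exporter of cyclic nucleotides and bile acids, 17.9 for Abca6, 15.9 for Abcc6 and 11.7 for Abcb1a. They were lowest among the 28 for Abcd3 at 2.29, for Abcb8 at 3.24 and for Abcb1b at 3.33. Abce1 stood at 1.02, Abcf3 at 0.862, Abcf2 at 0.796 and Abcf1 at 0.731. Some members called in another class had more in cluster 15 than in that class, pooled. These were Abca8a (158 against 72.3 CPM), Abcb1a (67.0 against 48.5) and Abcc10 (17.3 against 15.5). Abcb10, Abcg2 and Abcc3 had less there, at 29.6, 68.8 and 124 CPM, as had Abcc9 and Abca9. Abca1, Abcb6 and Abcb8 also passed their highest class, at 325, 67.0 and 40.7 CPM against 182, 38.9 and 19.8. Among partner genes, 7 of 12 on the cholesterol efflux list, 6 of 12 on the bile formation list, 2 of 10 on the haem list, 1 of 10 on the peroxisomal list and 1 of 7 on the translation list were at least 2-fold higher in cluster 15.

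Other measures moved with cluster 15. Its median share of mitochondrial UMIs was 10.4%, against 0 to 3.86% in the other hepatocyte-like clusters, and its median depth was 4166 UMIs. The RNAs kept in the nucleus were far higher there: Neat1 by 47.4-fold, Kcnq1ot1 by 46.3-fold and Malat1 by 36.03-fold. Among secreted proteins, the long Apob transcript was 20.9-fold higher and Alb 4.24-fold higher, whereas Apoa1 was at 1.61, Ttr at 0.791 and Apoa2 at 0.740 of the level elsewhere. Their part in the levels of the ABC members was not tested.

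**Figure D3:**
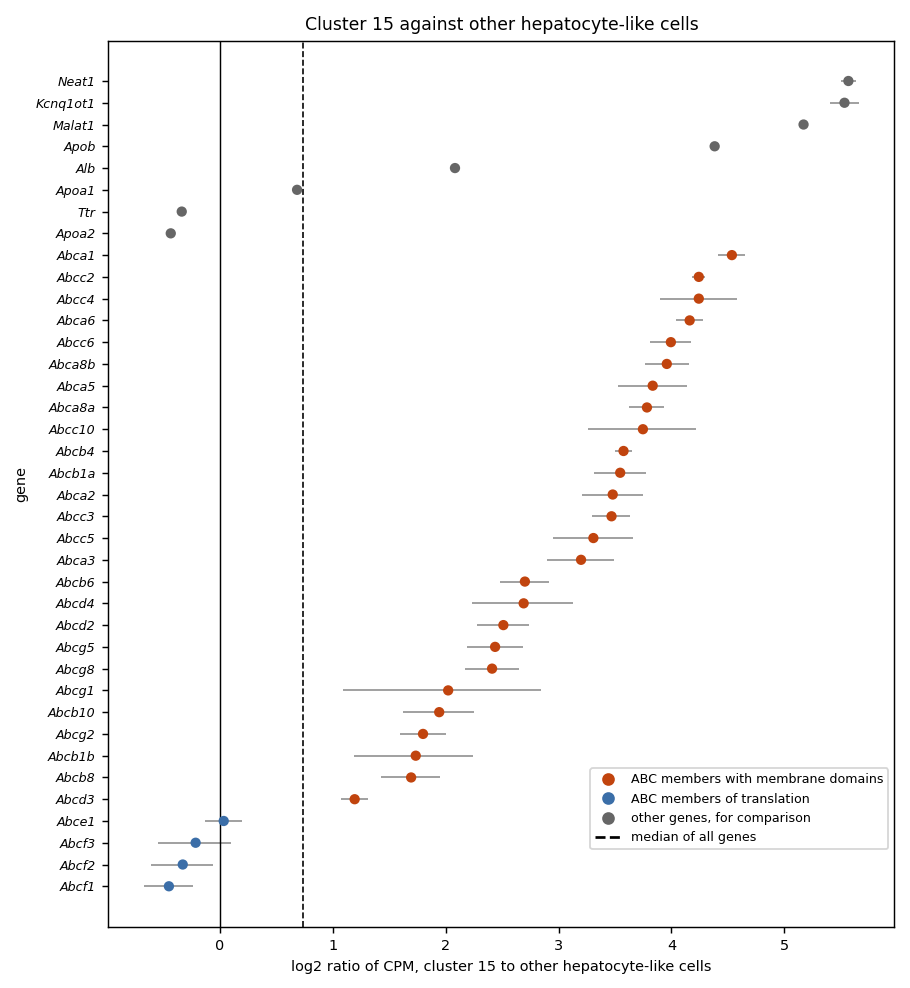
Log2 ratio of CPM in cluster 15 to all other hepatocyte-like cells, with 95% counting intervals, for members and 8 other genes; the dashed line is the median of all genes (0.74). The members with a membrane domain lie from 1.19 (Abcd3) to 4.54 (Abca1), and the 4 translation members lie near 0 or below.

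When cluster 15 was left out, Abcc2 had 64.9 CPM in hepatocyte-like cells and its ratio to monocyte-like cells was 1.20. Abcc6, at 1.56, also fell under 2-fold, while Abcb4 rose above 2-fold in erythroid-like cells, at 2.58. With these changes 9 members were 2-fold above the next class, and 4 in place of 6 were highest in hepatocyte-like cells. Among the 9 other clusters, cluster 6 was the highest for 26 of 31 members, against 29.0% of all genes. Cluster 6 held 1985 cells, led by Afp, H19 and Dlk1, genes of the fetal liver that hepatocellular carcinoma can express again. The measures that moved with cluster 15 were also higher in cluster 6 than in the 8 others: Neat1 at 105 CPM against at most 38.5 CPM, Malat1 at 1142 against at most 637 CPM, Kcnq1ot1 at 35.6 against at most 2.69 CPM and Apob at 840.0 against at most 403 CPM. Its median depth of 6206 UMIs was the highest of the 10 clusters. Their part in the ABC levels of cluster 6 was not tested. The summed level of the members other than the translation ones was 874 CPM in cluster 6, 3994 CPM in cluster 15 and between 127 and 311 CPM in the 8 others. Of the 31 members, 30 then differed at least 2-fold between the highest and lowest cluster, against 86.8% of all genes.

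**Figure D4:**
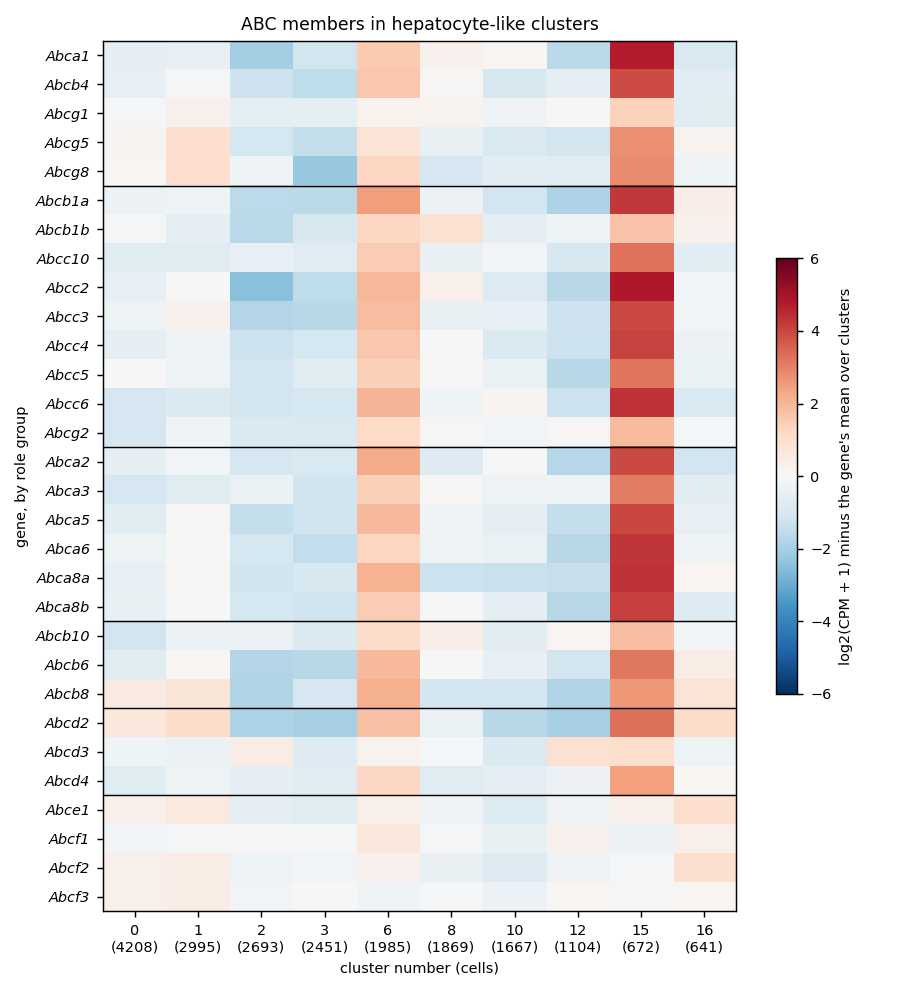
Levels of members (rows, by role) in the 10 hepatocyte-like clusters (columns, with cell numbers), as log2 of CPM plus 1 minus the gene's mean over clusters. Cluster 15 and, less so, cluster 6 are red for most rows, whereas Abcd3 is also high in cluster 12 and of the translation members Abce1 and Abcf2 are highest in cluster 16.

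The ratio of the highest to the lowest cluster was greatest for Abcc2, at 180 (interval 129 to 260) between clusters 15 and 2, and for Abca1, at 162 (87.7 to 339) between the same clusters. Cluster 2 came from library 1 almost entirely and was led by Serpina1e and Elovl3. Cluster 15 held 1 cell of library 1, so these ratios compare libraries as well as clusters. In the 90 cells of cluster 2 from library 3, Abca1 had 46.6 CPM (interval 12.7 to 119) from 4 UMIs. Cluster 15 of library 3 had 293 CPM. Abcc3 (88.5), Abca6 (81.4), Abca8a (79.7) and Abcb6 (55.6) had 4 to 7 UMIs in their lowest cluster. Abcd2, a peroxisomal importer of very long unsaturated fatty acids, had 58.0 CPM in cluster 15 and 1 UMI in cluster 12, a ratio of 117 (20.8 to 4652). Abca8b, with 2 UMIs in cluster 12, had a ratio of 108 (29.7 to 896), and Abcc6, with 3 UMIs there, 82.6 (28.1 to 402). Abca5 and Abcc4 had 0 UMIs in cluster 2 and were at least 69.0-fold and at least 64.1-fold higher in cluster 15, counted against 3 UMIs in the lowest cluster.

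The sterol exporters Abcg5 and Abcg8 work as a pair that moves cholesterol and plant sterols into bile. Their genes lie head to head. The stretch between their RefSeq starts is shown because both levels in hepatocyte-like cells ran in parallel in part, as given below. Capitals mark matches to the GATA motif AGATAA on either strand, found 2 times in these 109 bases. At least 1 copy lies in 9.99% of all 32851 promoter windows of 250 bases, and 5 of the 37 members with a window have one. These windows are longer than the stretch shown, so the 2 counts cannot be compared. The region is chr17:84683012-84683120 of GRCm38.p6, written in the direction of Abcg8, on the plus strand.
Abcg5/Abcg8: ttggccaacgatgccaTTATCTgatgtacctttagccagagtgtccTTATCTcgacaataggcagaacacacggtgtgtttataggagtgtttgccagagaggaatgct

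Abcg5 had 2.90, 16.6, 3.62 and 9.51 CPM in hepatocyte-like cells of libraries 1 to 4, and Abcg8 had 4.92, 17.6, 3.27 and 11.0 CPM. Both were highest in library 2 and next in library 4, but Abcg5 was lowest in library 1 and Abcg8 in library 3. Over clusters 0, 1, 3 and 6 Abcg5 had 7.54, 14.2, 1.76 and 12.4 CPM and Abcg8 7.22, 14.2, 0.527 and 16.7 CPM. Clusters 2 and 8 had opposite orders, at 2.61 and 4.48 CPM for Abcg5 and 5.22 and 2.69 CPM for Abcg8. Both were lowest in cluster 3, which came from library 3 and was led by Sds, a gene of periportal hepatocytes, and in cluster 15 they were 5.42-fold and 5.32-fold higher than elsewhere. Abcg8 had 3 UMIs in cluster 3, and its ratio of cluster 15 to cluster 3 was 100 (interval 33.8 to 491).

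Abcd3 followed another order. It had 164 CPM in cluster 12 and 117 CPM in cluster 2, both mostly from library 1, against 97.9 CPM in cluster 6. Cluster 10, which was led by Saa1 and Saa2, genes of the acute phase, had 47.1 CPM. Cluster 15 was still the highest, at 179 CPM. Within library 3 the order of clusters 12, 2 and 6 was another: Abcd3 had 152 CPM in cluster 6. It had 69.5 CPM in cluster 12, from 12 UMIs, and 81.6 CPM in cluster 2, from 7 UMIs. Abce1 and Abcf2 were highest in cluster 16, led by genes of cell division, at 156 and 73.6 CPM, and lowest in cluster 10, at 43.6 and 20.9 CPM. Abcf1 ran from 51.3 CPM in cluster 10 to 107 CPM in cluster 6. Abcf3 was the 1 member of 32 under 2-fold, from 20.5 CPM in cluster 10 to 36.3 CPM in cluster 1.

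Between libraries, 29 of the 32 members differed at least 2-fold in hepatocyte-like cells, where 62.7% of all genes did. Library 2 was the highest for 31 members, against 62.6% of all genes, and library 1 the lowest for 24, against 50.6%. Without cluster 15 the counts were 28 of 31 members, against 61.3% of all genes, with library 2 highest for 30 of the 31, against 61.0%. The libraries differed in which hepatocyte-like cells they held: cluster 6 gave 1143 of the 4399 hepatocyte-like cells of library 2 and 2 of the 3692 of library 1, and clusters 2 and 12 gave 2603 and 1022 cells of library 1 and 0 of library 2. Within clusters that several libraries share, library 2 was not the highest for every member: in cluster 6 Abcc2 and Abcb4 were lower in library 2 than in libraries 3 and 4. Library and sample cannot be told apart here. With cells thinned to 1000 UMIs, 22 members kept 100 UMIs, 19 were at least 2-fold apart, against 62.2% of all genes, and library 2 was highest for 19, against 60.2%.

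Abcc2 in hepatocyte-like cells was lowest in library 1 and highest in library 2 (9.26 and 154 CPM), a ratio of 16.6 (interval 12.98 to 21.6). Abca1 had 1.74, 38.3, 15.4 and 23.4 CPM in libraries 1 to 4, a ratio of 22.1 (12.6 to 42.8). Abcb1a had 0.290, 14.5, 1.37 and 6.44 CPM, with 2 UMIs in library 1, and its ratio was 50.2 (13.8 to 416). Each of these genes was low in library 1 and intermediate in libraries 3 and 4.

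Abcd2 had 0.579, 16.6, 2.85 and 14.5 CPM in libraries 1 to 4, so libraries 2 and 4 were close and both above the others, and the ratio of library 2 to library 1 was 28.7. Abcb8 had 1.59, 21.2, 4.46 and 13.1 CPM, a ratio of 13.3 (interval 7.39 to 26.8). Abcb6 had 1.88, 19.5, 5.9998 and 10.7 CPM. Both had the library order 2, 4, 3 and 1, whereas Abcb10, also mitochondrial, had 5.93, 12.8, 5.47 and 6.17 CPM in libraries 1 to 4, with libraries 1, 3 and 4 close. Abca8a had a ratio of 10.2 between libraries 2 and 1, and Abca2, a lysosomal lipid transporter, had 13.8. Abca5 and Abcc5 had 1 UMI each in library 1, with ratios of 46.1 (8.18 to 1827) and 43.0 (7.63 to 1705). Abcc4 had 0 UMIs in library 1 and was at least 9.64-fold higher in library 2, counted against 3 UMIs in library 1. Abcc10 had 2 UMIs in library 1 and a ratio of 10.6 (2.87 to 89.0).

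Abcd3 alone of the 32 was highest in library 1, at 133 CPM against 63.1 CPM in library 3 (ratio 2.11, interval 1.93 to 2.31). Abcb4 had the library order of Abcc2, with a ratio of 4.595 (interval 3.91 to 5.43). Abcg2 had 12.7, 30.5, 16.99 and 16.4 CPM in libraries 1 to 4, and libraries 3 and 4 did not differ beyond their counting intervals. Abce1 had 55.4, 118, 55.7 and 92.1 CPM, and its ratio was 2.13. The remaining translation members stayed under 2-fold between libraries, at 1.84 for Abcf2, 1.36 for Abcf1 and 1.32 for Abcf3.

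**Figure D5:**
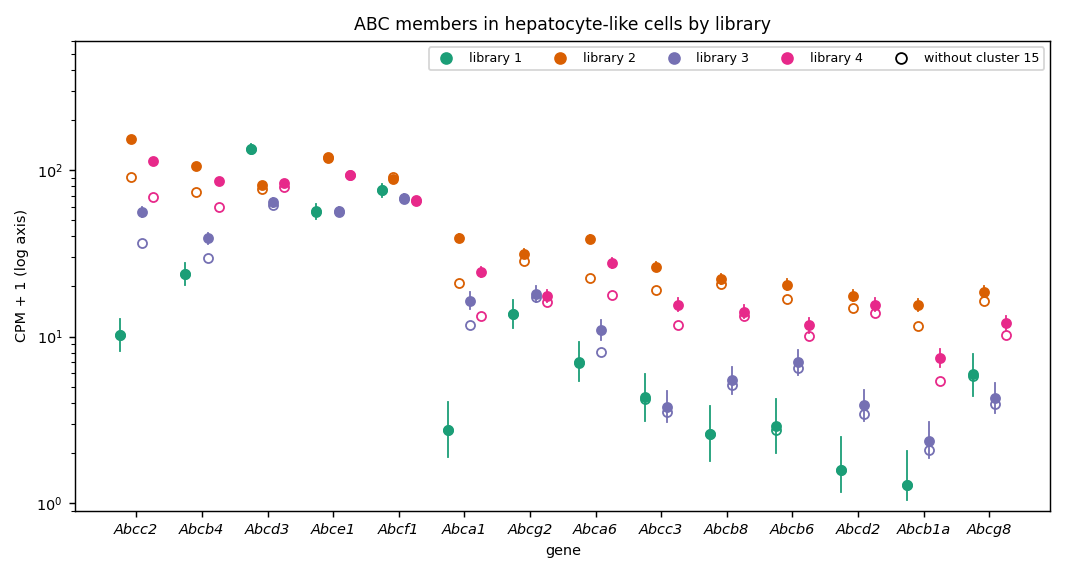
CPM plus 1 on a log axis of 14 members in hepatocyte-like cells of libraries 1 to 4; filled points with 95% counting intervals are all hepatocyte-like cells and open points leave out cluster 15. Library 2 is the highest for all shown but Abcd3, which is highest in library 1 at 133 CPM, and the open points of Abcc2 and Abca1 lie clearly below the filled ones in libraries 2, 3 and 4.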

How the data were processed

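Livers were digested, filtered, treated to lyse red blood cells and made into 10x Genomics 3′ libraries, per the labels' protocols, and lysis limits which erythroid-like cells were measured. The deposited matrix holds raw UMI counts with no normalization and names Cell Ranger 6.0.1 as its source, per the file headers. The genome build is mm9 per the submitters' processing notes, and the sources used here do not give the annotation. Depth is given in the report.

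Barcodes were kept with at least 200 genes, 500 UMIs and under 20% mitochondrial UMIs (1922 of 38072 removed), and 1366 doublets (3.78%; Scrublet method of scanpy 1.11.5, expected rate 8%, score above 0.25) were left out. Counts were normalised to 10000 per cell, logged and scaled with a limit of 10, and 2000 variable genes, chosen without the ABC, list, mitochondrial, ribosomal and haemoglobin genes, were reduced to 30 components, followed by Leiden clustering (igraph 0.11.9) of a graph of 15 neighbours at resolution 1. A class needed 3 markers detected in at least 10% of cells, 50 cells, the highest mean log2 ratio to the lower quartile of clusters (20 CPM added) and no rival class with more of its markers in the 10 leading genes.

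Counts were summed per class, cluster and library. Levels have exact Poisson, shares exact Clopper-Pearson and ratios exact conditional binomial 95% intervals (scipy 1.17.1). UMI intervals and floors cover counting error only. A member was called at a ratio of at least 2 with an interval above 1, and a 0 was read as 3 UMIs. The planned comparison of tumor with normal liver was not computed, since no source pairs libraries with samples. The text names, by rule, the up to 12 largest ratios of each view (classes, hepatocyte-like clusters of at least 100 cells, libraries) and the 3 members with most UMIs of each role, and other members are named where an order or a count turns on them. The code was tested on simulated counts. Members and lists were chosen with earlier results of these data known, and the naming score and its settings were set after seeing the data. Promoters are RefSeq windows of GRCm38.p6, another build than the files', matched by symbol: 37 members had one. Gcn1 was not found under that symbol. For some genes of the pattern no result of their own is reported here.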

Additional observations from a re-analysis of the deposited data

Results flagged for a closer look

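Barcodes left out of every comparison for a high share of mitochondrial UMIs had high levels of Abcc2, Abcb4 and Abca1, as cluster 15 did. Among the 1706 barcodes with at least 500 UMIs and 200 genes but 20% or more mitochondrial UMIs (median 44.7%), levels in CPM over the remaining UMIs were 1000.1 for Abcc2, 604 for Abcb4, 281 for Abca1 and 100.2 for Abce1. These are signals in data the comparisons do not use. On the same scale, cluster 15 had 1366 for Abcc2, 736 for Abcb4, 361 for Abca1 and 105 for Abce1, and the other hepatocyte-like cells had 65.9, 56.4, 14.2 and 93.4. In library 2 the left-out barcodes had 919 for Abcc2 against 91.4 in hepatocyte-like cells outside cluster 15, in library 4 they had 1204 against 68.9, and in library 3, with 102 such barcodes, 266 against 35.99. Neat1 had 1130 CPM in the left-out barcodes and 33.9 in hepatocyte-like cells outside cluster 15.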

How the results depend on the processing

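With 1 sample a group there is no replicate error, and library, sample and batch cannot be told apart. Over all alternatives, 67 recomputed counts of members stayed within 1.5 times the reported count and 2 did not. These were the members at least 2-fold above the next class, which were 5 without library 1 (10 with it), and the members at least 2-fold apart between libraries, which were 19 when cells were thinned to 1000 UMIs (29 without thinning). The first uses fewer cells and the second fewer UMIs. Abcb10, Abcc9, Abca8a and Abcg2 were called against the next class in 14 of 14 settings, Abcc3 in 13, Abca9 and Abcb1a in 10, Abcc2 in 8, and Abcc6 and Abcc10 in 7. Abca9 reversed between Kupffer cell-like and monocyte-like cells without library 1, at a log2 ratio of -0.16, and the cause was not tested. Of the ratios of single members, 369 stayed within their counting interval and 79 did not. Leaving out cluster 15 was chosen after seeing the data. No paired analysis was possible because the matrix pools the samples and no library is tied to one. Members under 100 UMIs are limited by depth.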

Other observations

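Among the members under 100 UMIs, Abcg4, a cholesterol exporter known from nervous tissue, had 68 UMIs, of which 60 lay in erythroid-like cells, at 23.8 CPM. Abca13 had 26 UMIs, of which 19 lay in cluster 25, an unnamed cluster of 127 cells led by Elane, Mpo and Camp, genes of neutrophil precursors, at 18.7 CPM. Abcc12 had 18 UMIs, 16 of them in hepatocyte-like cells. Abca17 had 16 UMIs and Abca4 had 11, while Abca14, Abcb5 and Abca15 had 6, 2 and 1.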
